A study of Mus musculus with 12 samples.

Results

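Transcription factors that carry neural stem cells (NSCs) into the oligodendrocyte lineage were followed by RNA-seq: Olig1, Olig2, Sox8, Nkx2-2, Sox10, Myrf, Nkx6-2, Zfp488, Zfp536 and Tcf7l2. The 10 genes were matched by symbol in the deposited table that merges the libraries and joined by Ensembl identifier to the counts of each library. All 10 were found among the 45792 genes listed, each under 1 identifier, and all 10 were among the 15706 genes that passed the filter on low counts. They were divided by the stage at which each is known to act. Olig1, Olig2, Sox8, Nkx2-2 and Sox10 are called early specifiers here, and Myrf, Nkx6-2, Zfp488, Zfp536 and Tcf7l2 late differentiation factors.

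Oligodendrocytes are the myelin-forming cells of the central nervous system. Olig1 and Olig2 are basic helix-loop-helix proteins that mark the lineage from its precursors onward, and Olig2 is needed for the precursors to form. The SOXE proteins Sox8 and Sox10 follow, and Sox10 binds many myelin genes. The zinc-finger proteins, the homeodomain protein Nkx6-2, the Wnt effector Tcf7l2 and the membrane-bound factor Myrf act as precursors leave the cell cycle and begin to make myelin, with Myrf a main activator of the myelin genes. In the NSC cultures of the forebrain all 3 neural fates are open.

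The cultures came from pups aged 1 or 2 days. NSCs of 4 WT pups (C57BL/6J) and 4 Ncf1-/- pups, of a line backcrossed for at least 10 generations to that strain, were grown per pup in serum-free medium with EGF, FGF and B-27. Ncf1 encodes a subunit of the NADPH oxidase Nox2, and Igfbp2 is a secreted binding protein of insulin-like growth factors. At 48 h after plating, paired cultures of each Ncf1-/- animal received vehicle, which the labels list as no treatment, or mouse recombinant Igfbp2 (100 ng per ml by the labels, a lower dose by the study's methods). RNA was taken 48 h later and depleted of rRNA, giving 4 libraries each of WT (libraries 9 to 12), vehicle-treated Ncf1-/- (1 to 4) and Igfbp2-treated Ncf1-/- NSCs (5 to 8). The comparisons ask how the loss of Ncf1 and the later addition of Igfbp2 moved the NSC transcriptome.

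Expected counts summed to between 18201622 and 34086554 per library. Ncf1 itself had 1 to 7 counts in every library, so the genotype could not be checked on it. WT library 11 stood apart from the other WT libraries: the summed level of the 7 neural stem cell markers was 8094 CPM (the count scaled to library size with TMM factors) in it, 2432 to 3658 CPM in the other WT libraries and 7954 to 8771 CPM in vehicle-treated NSCs. Vim (4569 CPM) and Fabp7 (2178 CPM) were the largest parts of that sum in library 11. Its Nes, Egfr, Fabp7 and Prom1 lay between the other WT and the vehicle-treated libraries. Its Sox2 (371 CPM) and Msi1 (193 CPM) stayed above the vehicle-treated libraries (191 to 200 and 74.9 to 80.2 CPM). A second sample sheet of the study's code lists WT library 12 as an apocynin-treated culture, although its label says untreated WT. The 4 Y-linked genes summed to 107 to 118 CPM in WT libraries 9 to 11, to 105 to 116 CPM in the vehicle-treated libraries, and to 6.46 CPM in WT library 12 and 7.80 to 9.18 CPM in the Igfbp2-treated libraries. Xist had 72 to 182 counts in WT libraries 9 to 11 and 5223 in WT library 12. It had 1637 to 2212 counts in the vehicle-treated and 2993 to 5593 in the Igfbp2-treated libraries. Each vehicle-treated library, given as the culture of a single pup, thus held Y-linked genes and Xist together. The treated and vehicle groups therefore differed in sex-linked expression although the study gives them the same animals, and in that comparison Igfbp2 and whatever set the sex-linked genes cannot be told apart. The same limit holds for Igfbp2-treated NSCs against WT libraries 9 to 11. Against all 4 WT libraries the 4 Y-linked genes were called lower. Vehicle-treated NSCs differed from WT libraries 9 to 11 in Xist, and the part of this in their comparison with WT was not tested.

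Upstream windows of 250 bases, ending at the gene's start in RefSeq (GRCm38.p6), were found for 7 of the 10 genes. By the GENCODE M21 annotation, which is used below for gene positions, the Nkx2-2 window lies inside the gene (147177546 to 147194243). The same holds for the Zfp536 window and for window 2 of Tcf7l2. These windows are thus upstream only of the RefSeq start. They are shown for Olig2, which rose in Ncf1-/- NSCs, and for Sox8, Nkx2-2 and Zfp488, which fell. Bases inside exons of coding genes are left out, which shortens Olig2 to 157 and Nkx2-2 to 197 bases, and each is written 5′ to 3′ on the gene's strand. Capitals mark the E-box CANNTG, the letters that basic helix-loop-helix proteins such as Olig2 bind.
Olig2 (chr16:91225300-91225456, plus strand): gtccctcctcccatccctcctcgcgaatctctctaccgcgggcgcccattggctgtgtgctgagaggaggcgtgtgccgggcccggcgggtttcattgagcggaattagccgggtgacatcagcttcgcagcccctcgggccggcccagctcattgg
Sox8 (chr17:25570687-25570936, minus strand): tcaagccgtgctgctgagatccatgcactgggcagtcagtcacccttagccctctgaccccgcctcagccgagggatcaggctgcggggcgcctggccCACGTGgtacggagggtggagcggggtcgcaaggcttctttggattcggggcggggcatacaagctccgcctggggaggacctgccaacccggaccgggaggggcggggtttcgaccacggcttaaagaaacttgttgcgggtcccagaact
Nkx2-2 (chr2:147186456-147186652, minus strand): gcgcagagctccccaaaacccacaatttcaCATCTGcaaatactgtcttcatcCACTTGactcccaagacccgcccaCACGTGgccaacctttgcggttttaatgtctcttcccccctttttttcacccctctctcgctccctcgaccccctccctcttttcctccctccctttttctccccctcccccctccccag
Zfp488 (chr14:33978765-33979014, minus strand): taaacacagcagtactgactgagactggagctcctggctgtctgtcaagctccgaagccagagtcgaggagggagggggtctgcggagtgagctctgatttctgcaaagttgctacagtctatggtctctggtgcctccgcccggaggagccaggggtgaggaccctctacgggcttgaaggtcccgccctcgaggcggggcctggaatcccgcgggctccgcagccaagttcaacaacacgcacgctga

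Across the whole 250-base windows, searched on both strands, the E-box occurred 3 times at Nkx2-2, 1 time at Sox8 and 1 time at Nkx6-2. The windows of Olig2, Zfp488, Zfp536 and Tcf7l2 held 0 matches. Of 27025 promoter windows in the table, 66.0% held at least 1 E-box. The SOX letters ACAAAG occurred in 1 of the 2 Tcf7l2 windows, against 16.5% of all promoters, and the TCF letters ATCAAAG, which share their last 5 letters with the SOX letters, in none, against 3.23%. These counts describe the letters of short windows.

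In the genome, Olig2 (chromosome 16, 91225457 to 91228677, plus strand) and Olig1 (91269772 to 91271933, same strand) are neighbours, with 41094 bases and no coding gene between them. Coordinates are of GRCm38, the build in the submitters' processing notes, with the GENCODE M21 annotation. Exons of opposite-strand genes covered 157 bases of the exons of Olig1, 329 of Sox8, 278 of Nkx2-2 and 246 of Nkx6-2. Since strand-specific counting is not stated in the sources used here, reads there cannot be assigned to a strand. The partner of Sox8, 2810468N07Rik, had 392 to 1480 counts, that of Nkx6-2, Inpp5a, 203 to 625, and that of Nkx2-2, Nkx2-2os, 19 to 70. The partner of Olig1, Gm15966, had 0 counts in every library.

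In vehicle-treated Ncf1-/- NSCs the factors parted. Olig1 and Olig2 rose over WT, whereas Sox8, Nkx2-2, Sox10 and the 5 late factors fell. All 10 genes passed edgeR's quasi-likelihood test at a Benjamini-Hochberg adjusted p under 0.05, 2 higher and 8 lower, and for all 10 the CPM ranges of the 4 libraries did not overlap (9 of 10 on TPM, where Olig2 overlapped). This stands beside 57.2% of all genes tested called (28.9% higher and 28.2% lower) and 51.2% of all genes with no overlap in CPM. Being called was thus common among all genes. The share of all genes without overlap on TPM was not computed for any comparison. The median log2 fold change was −1.11 for the early specifiers and −2.30 for the late factors, against 0.0154 for all genes tested.

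**Figure D1:**
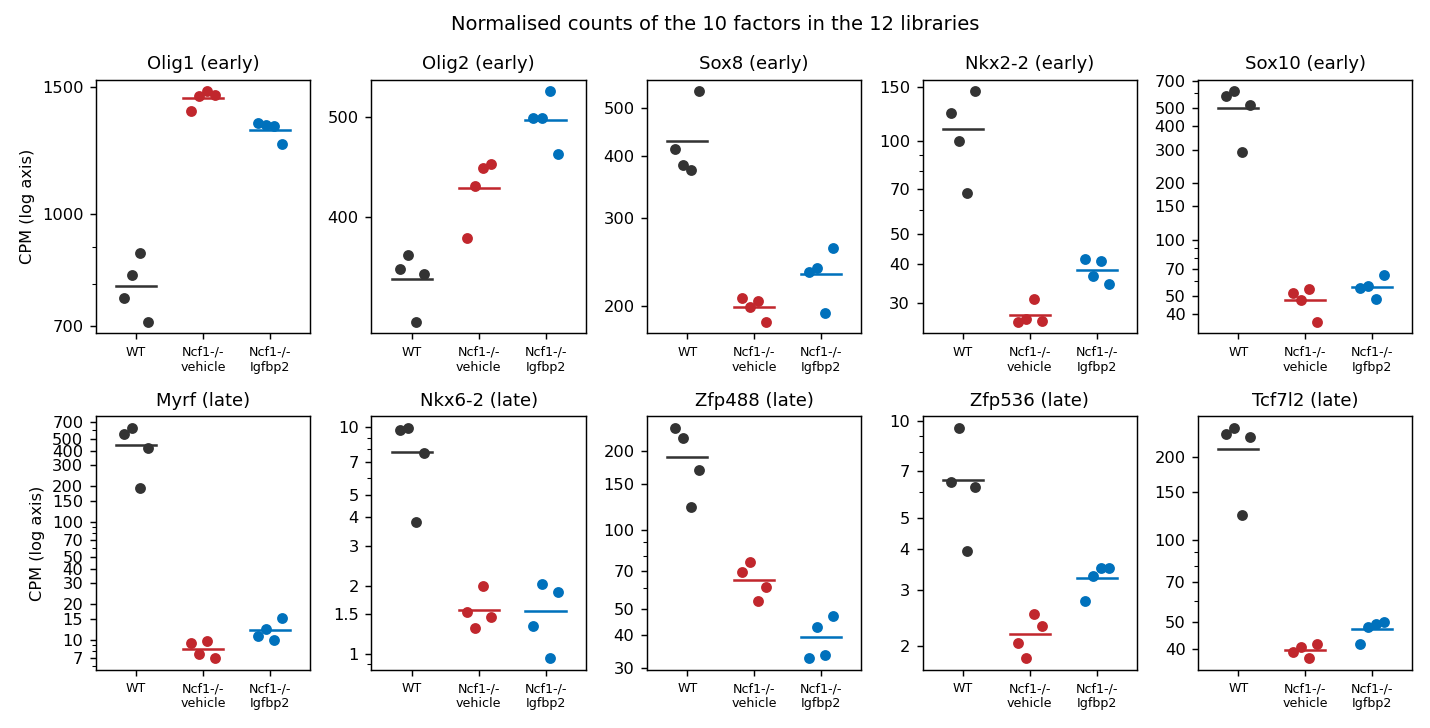
Normalised counts (CPM, log axis, a separate scale per panel) of the 10 factors in the 4 WT, 4 vehicle-treated and 4 Igfbp2-treated Ncf1-/- libraries, each point 1 library and each line the mean of a group. Olig1 and Olig2 lie above WT in the 8 Ncf1-/- libraries, the other 8 factors below it, and Myrf moves from 194 to 624 CPM in WT to 6.94 to 9.71 CPM in vehicle-treated NSCs.

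Olig1, which maintains the lineage and supports the maturation of its cells, was at 765, 824, 884 and 710 CPM in the WT libraries, at 1392, 1460, 1482 and 1465 CPM in the vehicle-treated libraries, and at 1337, 1330, 1328 and 1251 CPM after Igfbp2. The 8 Ncf1-/- libraries lay above the 4 WT libraries, and the treated lay below the vehicle-treated. Against WT, Olig1 rose by 0.87 ± 0.093 (log2 fold change ± SE, n = 4 per group, edgeR adjusted p = 5.55e-06), a 1.82-fold higher level.

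Olig2, the factor that sets up the precursors, was at 356, 368, 317 and 352 CPM in WT, at 382, 429, 447 and 451 CPM in vehicle-treated and at 499, 499.6, 530 and 460.5 CPM in Igfbp2-treated NSCs. The 3 groups did not overlap on this scale, but did on TPM. Its rise in Ncf1-/- NSCs was the smallest difference of the set, with a log2 fold change of 0.29 ± 0.085 (adjusted p = 0.00978, edgeR, n = 4 per group). The call was lost without vehicle-treated library 3 (adjusted p = 0.0528) and in the tests on TPM (RSEM's abundance per transcript length), where adjusted p lay between 0.107 and 0.414.

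Sox8, on chromosome 17 (25565892 to 25570686, minus strand), is a SOXE protein that shares tasks with Sox10. It was at 414, 384, 376 and 541 CPM in WT and at 207, 199, 204 and 186 CPM in vehicle-treated NSCs. Each vehicle-treated library lay below each WT library, and the level fell 2.15-fold (log2 fold change −1.11 ± 0.12, edgeR adjusted p = 7.90e-06). After Igfbp2 the values were 234, 238, 193 and 261 CPM, which overlapped those of vehicle.

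Nkx2-2, on chromosome 2 (147177546 to 147194243, minus strand), is a homeodomain protein that times the onset of differentiation. Its levels were 124, 100.3, 68.0 and 145 CPM in WT, 26.1, 26.6, 30.9 and 26.3 CPM in vehicle-treated and 41.5, 36.7, 41.0 and 34.7 CPM in Igfbp2-treated NSCs. On this scale the 3 groups were apart, in the order WT, Igfbp2, vehicle, while on TPM vehicle (12.6 to 15.5) and Igfbp2 (11.3 to 17.7) overlapped. It fell 3.97-fold in vehicle-treated NSCs (log2 fold change −1.99 ± 0.18, edgeR adjusted p = 1.65e-06).

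Sox10, on chromosome 15 (79154908 to 79165240, minus strand), fell most among the early specifiers. The WT libraries held 580, 615, 293 and 518 CPM, the vehicle-treated 52.1, 47.9, 54.6 and 36.7 CPM, and the Igfbp2-treated 55.2, 56.7, 48.1 and 64.4 CPM. The lowest WT library, number 11, was still far above the highest Ncf1-/- library. Sox10 was 10.5-fold lower in vehicle-treated NSCs than in WT (log2 fold change −3.39 ± 0.22, edgeR adjusted p = 1.01e-07).

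Myrf, on chromosome 19 (10208272 to 10240748, minus strand), showed the largest difference of the set. Counts in the WT libraries were 12277, 11567, 6771 and 7631, in the vehicle-treated libraries 213, 156, 220 and 186, and after Igfbp2 192, 205, 207 and 308. Scaled for depth, WT held 558, 624, 194 and 425 CPM, vehicle-treated NSCs 9.28, 7.55, 9.71 and 6.94 CPM, and Igfbp2-treated NSCs 10.6, 12.3, 9.90 and 15.1 CPM. The treated and vehicle values stood next to each other at the bottom of the range, without overlap in CPM but with overlap in TPM (1.12 to 1.67 and 1.25 to 1.68), and WT stood far above both. The level was 53.8-fold lower in vehicle-treated NSCs than in WT (log2 fold change −5.75 ± 0.34, 95% interval −6.48 to −5.02, edgeR adjusted p = 6.40e-08), and among the 15706 genes tested Myrf was the 26th from the largest fall.

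Tcf7l2, on chromosome 19 (55741820 to 55933654, plus strand), links Wnt signalling to the exit of precursors from the cycle. It was at 243, 256, 123 and 236 CPM in WT, at 38.9, 40.6, 37.0 and 41.7 CPM in vehicle-treated and at 41.7, 48.2, 49.2 and 50.2 CPM in Igfbp2-treated NSCs. WT library 11 lay between the other WT libraries and the Ncf1-/- libraries. Tcf7l2 fell 5.42-fold in vehicle-treated NSCs (log2 fold change −2.44 ± 0.19, edgeR adjusted p = 3.97e-07).

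Zfp488, on chromosome 14 (33967070 to 33978764, minus strand), is a zinc-finger partner of Olig2 that promotes differentiation. WT libraries held 244, 223, 122 and 168 CPM, vehicle-treated 69.2, 75.4, 53.7 and 61.0 CPM, and Igfbp2-treated 32.6, 43.0, 33.7 and 47.2 CPM. The groups were apart, and the Igfbp2-treated libraries lay farthest from WT. In vehicle-treated NSCs it was 2.92-fold lower than in WT (log2 fold change −1.55 ± 0.20, edgeR adjusted p = 2.54e-05).

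The other late factors were the members at the lowest levels. Nkx6-2, a homeodomain protein of myelinating cells on chromosome 7 (139579376 to 139582797, minus strand), had 133 to 214 counts in WT, 27 to 45 in vehicle-treated and 20 to 38 in Igfbp2-treated libraries. Its CPM were 9.73, 9.93, 3.82 and 7.68 in WT and 1.53, 1.31, 1.99 and 1.46 in vehicle-treated NSCs, which is 4.92-fold lower (log2 fold change −2.30 ± 0.31, edgeR adjusted p = 3.34e-05). Zfp536, a zinc-finger protein also on chromosome 7 (37472135 to 37773641, minus strand), had 112 to 176 counts in WT, 38 to 62 in vehicle-treated and 50 to 73 in Igfbp2-treated libraries. It was 2.97-fold lower in vehicle-treated NSCs than in WT (log2 fold change −1.57 ± 0.23, edgeR adjusted p = 7.32e-05).

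Leaving out WT library 11 or WT library 12 kept all 10 calls in vehicle-treated against WT NSCs. Without WT library 11 the log2 fold change of Myrf was −6.00 and that of Nkx2-2 −2.16, and without WT library 12 they were −5.82 and −1.86. The smallest 2-sided p of an exact permutation test between 4 and 4 libraries is 0.0286, and each of the 10 genes reached it in this comparison. Any gene whose groups do not overlap reaches it (51.2% of all genes tested), so it repeats the lack of overlap. In bulk RNA, fewer cells of a lineage and less RNA per cell cannot be told apart, and this holds for every level given here.

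**Figure D2:**
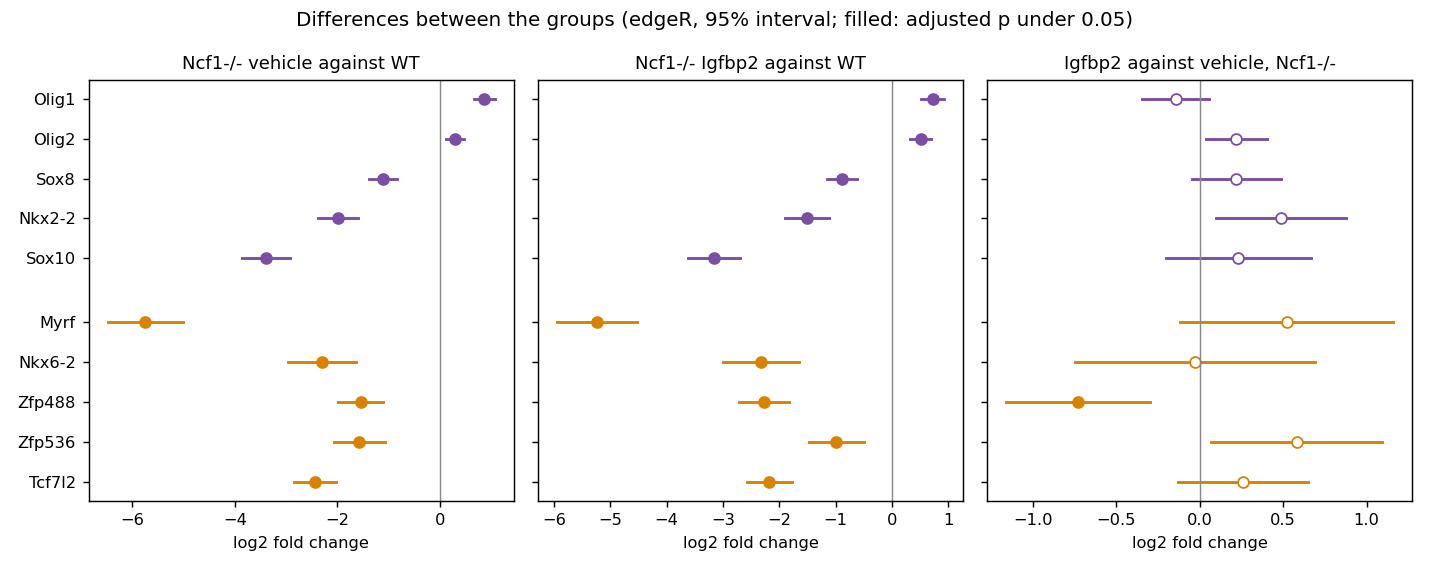
Log2 fold changes of the 10 factors in the 3 comparisons with 95% intervals (edgeR, 4 libraries per group); the horizontal axes differ, early specifiers are purple, late factors orange, and filled points passed an adjusted p under 0.05. All 10 are filled in both comparisons with WT, from Olig1 at 0.87 to Myrf at −5.75 on the left, and Zfp488 alone is filled between Igfbp2 and vehicle.

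Few of the factors were called between Igfbp2 and vehicle. Of the 10 genes, 1 passed the test between Igfbp2-treated and vehicle-treated Ncf1-/- NSCs, Zfp488, which fell by 0.73 ± 0.20 on the log2 scale (edgeR adjusted p = 0.02). Among all genes tested 25.0% were called, 14.2% higher and 10.7% lower. The ranges of the 2 groups did not overlap for 7 of the 10 genes, against 34.1% of all genes tested. On TPM 3 of the 10 did not overlap, namely Olig1, Sox8 and Zfp488, each lower after Igfbp2, with no share of all genes computed. Sox8 was at 40.7 to 55.8 TPM after Igfbp2 and 57.0 to 60.1 TPM under vehicle, opposite to its fitted change on CPM. The early specifiers had a median log2 fold change of 0.22 and the late factors of 0.26, with 0.0375 for all genes. These medians are those of Olig2 and Tcf7l2 and turned to −0.052 and −0.012 with library totals and to −0.26 and −0.14 with limma on log2(TPM + 0.1). The fall of Zfp488 was lost in turn without library 1, 2, 5 or 7, where adjusted p lay between 0.054 and 0.0627, and in the one-way model on TPM that the study used (0.314).

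Nkx2-2, Myrf and Zfp536 had the largest fitted increases under Igfbp2, none of them past the threshold. Nkx2-2 had a log2 fold change of 0.49 ± 0.18 (edgeR adjusted p = 0.0643), Zfp536 of 0.58 ± 0.24 (0.0895) and Myrf of 0.52 ± 0.30 (0.212, 95% interval −0.12 to 1.16). Over the fits tried, Nkx2-2 ranged from 0.029 to 0.506 and was called in 3 of 22. Myrf ranged from 0.086 to 0.574 (called in 2 of 22) and Zfp536 from 0.117 to 0.628 (3 of 21). With the preparation as a block, 3 of the 10 genes were called: Nkx2-2 (0.44, adjusted p = 0.00196), Zfp536 (0.53, adjusted p = 0.034) and Zfp488 (−0.78, adjusted p = 0.00199). The same 8 libraries without the block gave 4 calls, these 3 and Myrf (0.47, adjusted p = 0.0284; 0.0725 with the block), and all 12 libraries without WT library 11 gave 5, namely Nkx2-2, Myrf, Zfp536 and Tcf7l2 higher and Zfp488 lower. Among all genes tested, 5434 of 15101 were called with the block and 5709 of 15101 in the same libraries unblocked. Without WT library 11, 4872 of 15913 were called. The calls between Igfbp2 and vehicle thus differed with the libraries in the fit. For Myrf the value under Igfbp2 was 11.99 ± 2.32 CPM (SD, n = 4), compared with 8.37 ± 1.34 CPM under vehicle and 450 ± 190 CPM in WT.

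The remaining members did not pass the test between Igfbp2 and vehicle. Log2 fold changes were −0.15 for Olig1 (95% interval −0.34 to 0.06, edgeR adjusted p = 0.266), 0.22 for Olig2 (0.035 to 0.40, adjusted p = 0.0764), and 0.22 for Sox8 (−0.047 to 0.49). They were 0.23 for Sox10 (−0.20 to 0.66), 0.26 for Tcf7l2 (−0.13 to 0.65) and −0.027 for Nkx6-2 (−0.75 to 0.69). The direction of Olig2, Sox8, Sox10 and Tcf7l2 reversed when libraries were scaled by their totals, where the median of all genes was −0.235 in place of 0.038, and in the tests on TPM, where it was as low as −0.432. No direction is given for these 4 genes. Olig1 kept its direction and was called lower with library totals (−0.42, edgeR adjusted p = 0.00929) and with limma on TPM (−0.63, adjusted p = 0.00938 to 0.00985). The same shift of all genes applies to these values of Olig1. The median of all genes was −0.235 with library totals and −0.296 to −0.42 with limma.

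Against WT, Igfbp2-treated Ncf1-/- NSCs held the same split. All 10 genes were called, 2 higher and 8 lower, beside 62.4% of all genes tested (31.6% higher and 30.8% lower), and all 10 did not overlap with WT in CPM, beside 54.3% (8 of 10 on TPM, where Olig1 and Olig2 overlapped). Both comparisons with WT use the same 4 WT libraries, so their values are set side by side without a test of likeness. Myrf was 37.5-fold lower after Igfbp2 and 53.8-fold lower under vehicle, Sox10 8.94-fold and 10.5-fold, Nkx2-2 2.84-fold and 3.97-fold, Tcf7l2 4.53-fold and 5.42-fold, and Sox8 1.85-fold and 2.15-fold. Zfp488 was 4.84-fold lower after Igfbp2 and 2.92-fold lower under vehicle. Olig2 was 1.43-fold higher after Igfbp2 and 1.23-fold higher under vehicle, and Olig1 1.65-fold and 1.82-fold. Which Ncf1-/- group stood higher depended on the scaling for Sox10, Tcf7l2, Sox8 and Olig2. Their mean TPM were lower after Igfbp2 than under vehicle. Sox10 was at 11.8 against 13.9 TPM, Tcf7l2 at 10.8 against 11.7, Sox8 at 46.8 against 58.2 and Olig2 at 119 against 141. Nkx2-2 (14.3 against 13.9 TPM) and Myrf (1.48 against 1.34 TPM) differed little. The calls of Olig1 and Olig2 after Igfbp2 were lost in the tests on TPM, where their log2 fold changes were 0.29 to 0.30 and 0.081 to 0.11.

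Levels can be compared between genes only per length, for which TPM were used. In WT the order of mean TPM was Olig1 (290 ± 51, SD, n = 4), Sox10 (140 ± 32), Sox8 (121 ± 28), Olig2 (111 ± 8), Myrf (69.2 ± 24.2), Tcf7l2 (63.6 ± 15.0), Nkx2-2 (53.3 ± 16.3), Zfp488 (32.4 ± 6.3), Nkx6-2 (4.24 ± 1.34) and Zfp536 (1.25 ± 0.30). Neighbours whose ranges overlapped were Sox10 and Sox8, Sox8 and Olig2, Myrf and Tcf7l2, and Tcf7l2 and Nkx2-2, so their order is not resolved. In vehicle-treated NSCs Olig1 (545 ± 64 TPM) and Olig2 (141 ± 23) led, Sox8 (58.2 ± 1.4) was the third, and Sox10, Nkx2-2, Tcf7l2 and Zfp488 followed between 11.7 and 13.9 TPM with overlapping ranges. Myrf moved from the fifth place at 69.2 TPM to the eighth at 1.34 ± 0.25 TPM. The order after Igfbp2 was the same, except that Nkx2-2 (14.3 ± 2.7 TPM) stood ahead of Sox10 (11.8 ± 1.4), with overlapping ranges.

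**Figure D3:**
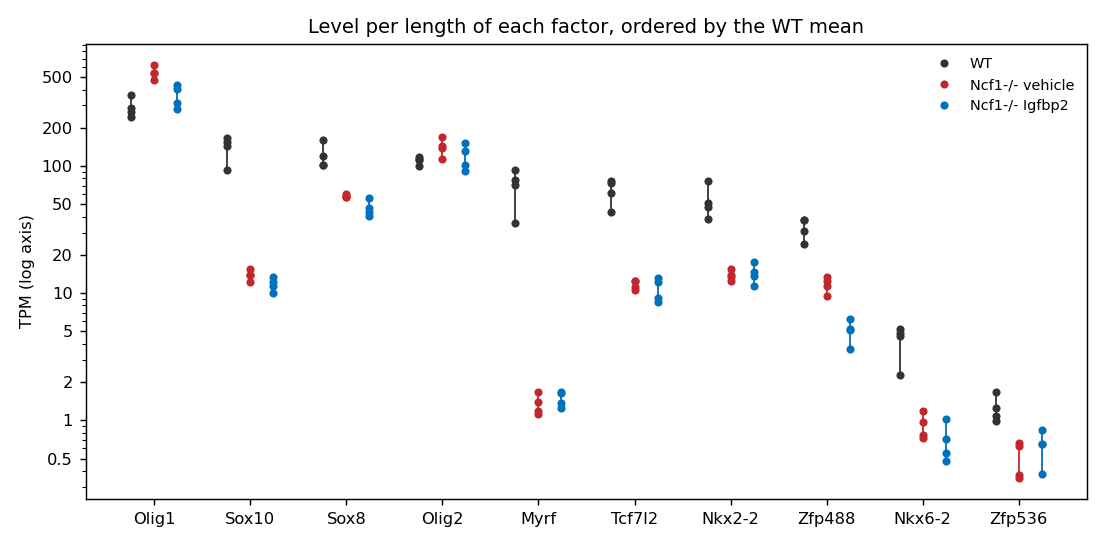
Level per length (TPM, log axis) of each factor in every library, ordered by the WT mean, with a line from the lowest to the highest of the 4 libraries of a group. The first 8 factors lie between 24.2 and 362 TPM in WT, while in Ncf1-/- NSCs Olig1 and Olig2 stay at 91.7 TPM or above and Myrf drops to 1.12 to 1.68 TPM.

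Ratios of 2 genes within a library do not depend on how the library was scaled. Myrf stood at 0.785, 0.825, 0.313 and 0.605 of the TPM of Olig2 in the WT libraries, at 0.00702 to 0.0122 in vehicle-treated and at 0.00906 to 0.0178 in Igfbp2-treated libraries. Sox10 was at 0.788 to 1.65 of the TPM of Sox8 in WT, at 0.204 to 0.268 under vehicle and at 0.24 to 0.261 after Igfbp2. Both ratios were thus lower in all 8 Ncf1-/- libraries than in any WT library, and the Ncf1-/- groups overlapped. Olig1 to Olig2 was 2.29 to 3.17 in WT, 3.70 to 4.15 under vehicle and 2.85 to 3.09 after Igfbp2. The treated libraries fell inside the WT range only through WT library 11 (3.17), and lay above the other WT libraries (2.29 to 2.55). Zfp488 to Myrf was 0.403 to 0.677 in WT, 5.64 to 12 under vehicle and 2.93 to 3.85 after Igfbp2, with no overlap between the groups. The mean TPM of Zfp488 was 32.4 in WT, 11.67 under vehicle and 5.085 after Igfbp2. That of Myrf was 1.34 under vehicle and 1.48 after Igfbp2.

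The sum of the 10 factors shifted in make-up. The late factors were 12.7% to 22.7% of the summed TPM in WT, 3.04% to 3.56% in vehicle-treated and 2.91% to 3.77% in Igfbp2-treated libraries. Olig1 and Olig2 made up 40.2% to 57.1%, 84.5% to 87.3% and 81.7% to 85.6%. The highest Olig share and the lowest late share of WT were those of library 11, whose late factors summed to 447 CPM against 843 to 1123 CPM in the other WT libraries and 105 to 127 CPM in vehicle-treated libraries.

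**Figure D4:**
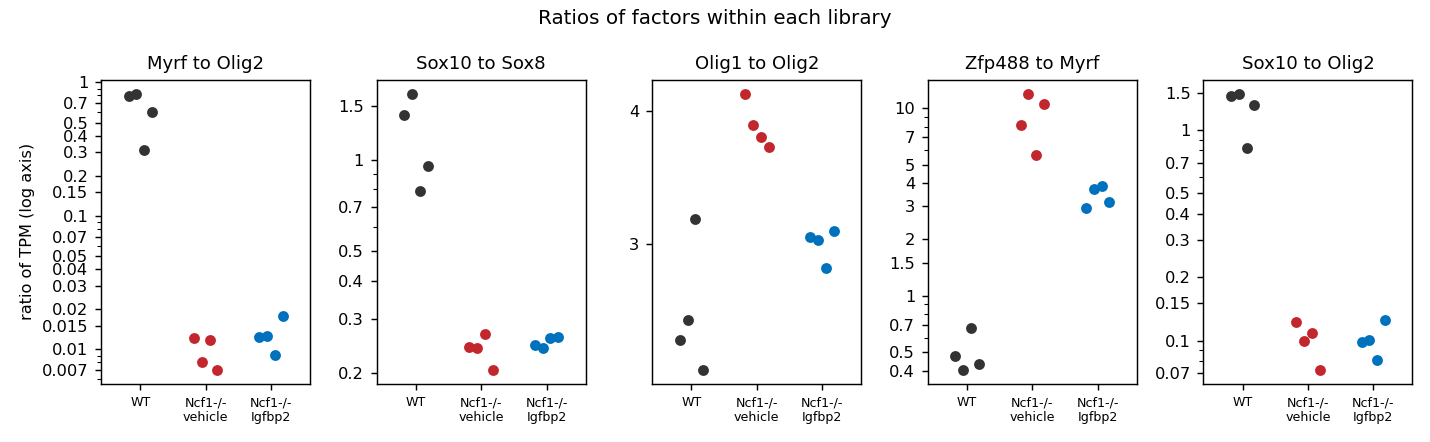
Ratios of the TPM of 2 factors within each library (log axes, a separate scale per panel), 4 libraries per group. Myrf to Olig2 lies at 0.313 to 0.825 in WT and at 0.0178 or below in all Ncf1-/- libraries, and the Igfbp2-treated libraries lie between WT and vehicle for Zfp488 to Myrf (2.93 to 3.85). The level of Zfp488 itself lies farthest from WT after Igfbp2.

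The abundance-weighted transcript length that RSEM lists for each gene changed little for most members. Olig1, Olig2, Sox10 and Zfp488 had 1 length in all 12 libraries. Zfp536 was at 3836 ± 296 bases (SD, n = 4) in WT, 3522 ± 488 under vehicle and 3043 ± 407 after Igfbp2, with 38 to 176 counts behind each value. Its ranges overlapped between all groups (3416 to 4110, 3060 to 4072 and 2588 to 3518 bases). Myrf was at 4711 ± 91, 4817 ± 354 and 4470 ± 319 bases, with overlap between the groups.

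Across the 12 libraries the log2 CPM of Myrf followed Sox10 (Pearson r = 0.998) and Tcf7l2 (0.991) most closely among the members and ran opposite to Olig1 (−0.983). Olig2 had r between −0.481 (Zfp536) and −0.875 (Zfp488) with the 8 members that fell. The points share libraries and fall into groups that differ, so these values describe the groups. Among the 11164 genes whose mean reached 5 CPM, the 5 nearest to Myrf were 1810041L15Rik, Slc1a1, Srcin1, Enpp6 and Tubb4a (r = 0.997 to 0.999), and the 5 nearest to Olig2 were Fkbp5, Chst11, Tmem158, Nkain1 and Ror2 (r = 0.972 to 0.982). Of these 10, Enpp6 is a marker of oligodendrocytes that have newly begun to differentiate.

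Many relatives of the factors were hardly expressed. Of 13 paralogues 6 passed the filter. Of these, 1 rose and 3 fell in vehicle-treated NSCs, a share near the 57.2% called among all genes tested. Sox9, the third SOXE gene, fell by 0.95 on the log2 scale from 426 to 220 CPM (edgeR adjusted p = 1.11e-05), and Bhlhe22, a relative of the Olig genes, by 2.66 from 2.69 to 0.418 CPM. Tcf7l1 fell by 2.05 while Tcf7, of the same family as Tcf7l2, rose by 1.72 from 1.51 to 4.999 CPM. Nkx2-1 and Prdm8 did not pass the test, with log2 fold changes of 0.088 and 0.37. Among the genes under the filter, Olig3, Bhlhe23, Nkx2-9 and Nkx6-3 had at most 1 count in any library.

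Genes of each later stage of the lineage were lower in vehicle-treated NSCs than in WT. Among all genes tested 57.2% were called in this comparison, and 28.2% were called lower. All 8 precursor genes fell, with a median log2 fold change of −0.995, and 7 were called lower with library totals or with limma on log2(TPM + 0.1). In those settings 9183 and 6541 of all 15706 genes tested were called. C1ql1 fell by 4.06 and Matn4 fell by 3.21, and the defining markers Pdgfra and Cspg4, chosen here after their values were seen, fell by 2.01 and 0.93. The 8 premyelinating genes all fell, with a median of −3.83. Enpp6 went from 305 to 0.576 CPM and Bmp4 from 58.4 to 0.605 CPM. Of 15 myelin genes tested, 12 fell and 2 rose. Mbp, the myelin basic protein gene, fell by 9.78 from 2448 to 2.78 CPM, and Mag, the myelin-associated glycoprotein gene, had 1191 to 5660 counts per WT library and 3 to 6 per vehicle-treated library. Trf, which encodes transferrin and is also expressed outside the lineage, rose by 2.51 and Aspa by 0.96. WT library 11 had the lowest myelin sum of the WT libraries, 1706 CPM against 5482 to 9835 CPM, while vehicle-treated libraries held 314 to 370 CPM.

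**Figure D5:**
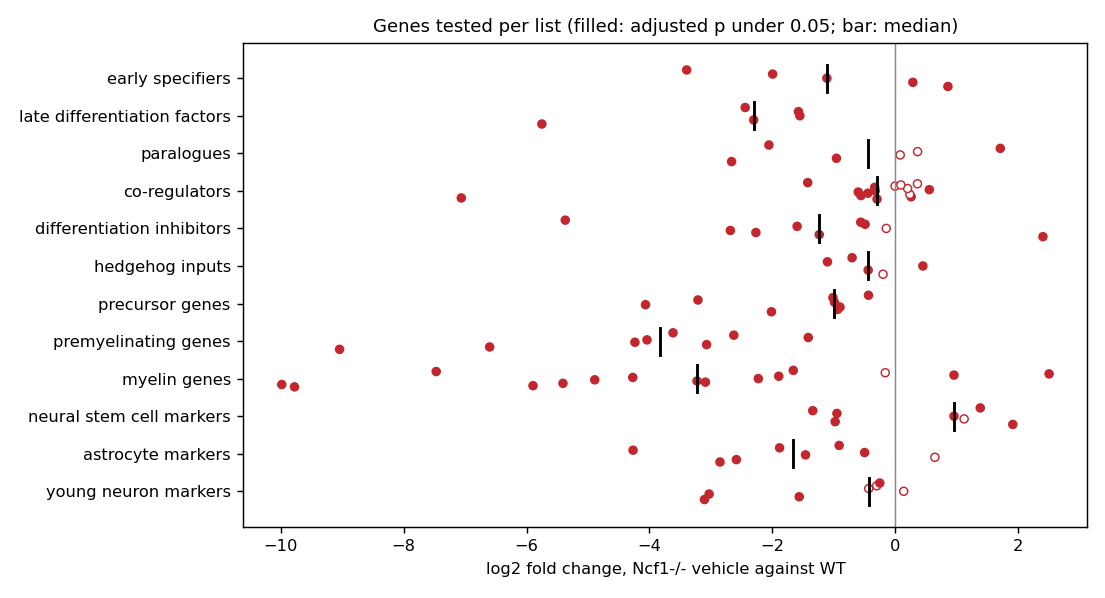
Log2 fold change between vehicle-treated Ncf1-/- and WT NSCs of each gene tested in 12 lists (4 libraries per group); filled points passed an adjusted p under 0.05 in edgeR and the bar is the median of the list. The late factors (median −2.30) lie between the precursor genes (−0.995) and the premyelinating genes (−3.83), and the neural stem cell markers have a median above 0 (0.96).

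Co-regulators and inhibitors of the factors were split. Among 15 co-regulators tested 2 rose and 8 fell in vehicle-treated NSCs, a share near the 57.2% called among all genes. With library totals 4 were called higher and 3 lower, and with limma on log2(TPM + 0.1) 1 higher and 2 lower. Of all 15706 genes tested, 9183 and 6541 were called in these settings. Hdac1, a deacetylase, rose by 0.56 and Zfp24 by 0.27, while Thrb, a thyroid hormone receptor, fell by 1.42 and St18, a zinc-finger gene, went from 118 to 387 counts in WT to at most 3 in any vehicle-treated library. Of 9 inhibitors of differentiation, 7 fell and 1 rose. Hes1, a Notch target, rose by 2.41, whereas Gpr17, a receptor of committed precursors, fell by 5.37 and Id4 by 2.68. In the hedgehog pathway, whose signal induces Olig2 in the embryo, Smo rose by 0.46, Gli2 fell by 1.10 and Gli3 by 0.70, with 1 gene higher and 3 lower among 5 tested.

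Under Igfbp2 fewer genes of these lists were called, and their counts changed with the scaling. Over all genes tested 25.0% were called, 14.2% higher. Relative to vehicle, 1 of 8 precursor genes rose, Cspg4 (0.95), and 1 of 8 premyelinating genes, Itpr2 (0.87), and 1 of 15 myelin genes, Trf (1.01). Of the inhibitors Notch1 rose (0.65) and Hes5 and Id4 fell (by 1.48 and 0.76). Of the co-regulators 3 rose, among them Klf9 (1.14), and of the hedgehog genes Shh rose (2.06), from 0.322 to 1.38 CPM. Of the paralogues Tcf7l1 rose (0.36). When TMM factors were left out, 0 paralogues, 0 premyelinating genes and 0 of the inhibitors were called higher, and 4 inhibitors and 2 precursor genes lower. The co-regulators then had 1 gene higher and 5 lower, and with limma on log2(TPM + 0.1) 0 higher and 6 lower. Of all 15706 genes tested, 5906 were called without TMM factors and 6519 with limma on log2(TPM + 0.1). The co-regulators called, out of 15, were thus near the share of all genes. Genes of these lists that are not in the rule for named genes were chosen here after their values were seen.

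Markers of other cells moved with the genotype as well. In vehicle-treated NSCs 3 of 7 neural stem cell markers rose (Nes by 1.92 and Egfr by 1.39) and 3 fell (Prom1 by 1.34 and Sox2 by 0.97). Of 8 astrocyte markers 7 fell, S100b by 4.26 and Gfap by 2.85, and their sum was 7359 to 13140 CPM in WT and 3246 to 3800 CPM under vehicle. Of 7 young neuron markers 4 fell, Dcx by 3.10, and Stmn2 had 15 to 37 counts per WT library and 1 to 5 per vehicle-treated library. Of 6 neuron-fate factors 5 fell, Dlx2 by 2.11, and Neurod1 had 10 to 24 and 1 to 5 counts. Over all genes tested 57.2% were called and 28.2% were lower. These markers moved beside the oligodendrocyte factors, and the part of the mixture of cells in their difference was not tested.

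Markers of cells from outside the neural lineages were at low levels. The 8 microglia markers summed to 0.835 to 2.13 CPM in the 12 libraries, with C1qa at 0 counts in each, and Itgam rose by 0.97. Mesenchymal markers summed to 9.87 to 26.8 CPM, and 4 of 5 rose under vehicle (Col3a1 by 4.28 and Acta2 by 2.56) while Pdgfrb fell by 5.36. Of the markers of Schwann cells, which also use Sox10, Foxd3 had 0 counts in every library. Egr2 and Pou3f1 rose by 2.06 and 1.97, with 3 of 3 tested higher under vehicle. Among all genes tested 57.2% were called in that comparison, and 28.9% were called higher.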

How the data were processed

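RNA of 12 NSC cultures was sequenced, 4 each of WT, vehicle-treated and Igfbp2-treated Ncf1-/- NSCs. The authors mapped reads to GRCm38 with Bowtie2 and quantified genes with RSEM, per the submitters' processing notes, which give no versions. They deposited for each library the expected count per gene, unnormalized, and TPM and FPKM made by RSEM; the FPKM were not used. The merged table holds a score made by the authors that equals TPM times the number of transcripts (257083 of 257083 values above 0, within 0.01 TPM per transcript), and it served to match symbols. Gene lengths are those RSEM lists as deposited.

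Expected counts were rounded and analysed in R 4.3.3 with edgeR 4.0.16. The filterByExpr rule on the 3 groups left 15706 genes holding 99.91% of counts. With TMM scaling, 1 quasi-likelihood fit took all 12 libraries, a coefficient for each group and no covariate, with Benjamini-Hochberg adjustment over all genes tested. The precision this depth gave was a median SE of 0.141 (log2) for vehicle-treated against WT NSCs, with totals of 18201622 to 34086554 counts. SE is the log2 fold change divided by the root of F, and intervals are 95% intervals from the fitted degrees of freedom. Fold changes in the text come from this fit unless TPM are named.

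Other settings tried were a fit by DESeq2 1.42.0, scaling by library totals alone, all genes unfiltered, genes averaging 5 CPM or more, a fit to just the 2 groups in question, the study's own test (a one-way model on TPM with Tukey comparisons), limma 3.58.1 on log2(TPM + 1) and log2(TPM + 0.1), an adjusted p under 0.01, a log2 fold change of at least 1, each library left out in turn, and the preparation as a block. Scripts were tested on simulated data. The study's methods pair the vehicle and Igfbp2 cultures of each animal and its sample sheet numbers them, by which libraries 1 and 5, 2 and 6, 3 and 7, and 4 and 8 were taken as pairs. With group means removed, their deviations correlated at −0.0673 to 0.0328 across genes (4 pairs), against −0.248 to 0.257 in 12 other pairs. The closest replicates differed by more than sampling noise (chi-square per degree of freedom 4.40).

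Members and lists were chosen with earlier results of these data known. Named genes are the 10 members, the paralogues tested, from each other list up to 2 called genes with the largest rise and 2 with the largest fall in vehicle-treated against WT NSCs, and the 5 genes most correlated with Olig2 and with Myrf. 1 marker gene is not reported here. List counts under other scalings and the overlap of groups on TPM were added after seeing the data.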

Additional observations from a re-analysis of the deposited data

Results flagged for a closer look

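Among 30 sets of 4 libraries (10 factors in 3 groups), 3 held a library far from the other 3 by Dixon's criterion; chance sets apart about 1 in 20 such sets. Olig1 was at 1251 CPM in Igfbp2-treated library 8, below the other treated libraries (1328 to 1337 CPM). Nkx2-2 was at 30.9 CPM in vehicle-treated library 3, above the others (26.1 to 26.6 CPM). Tcf7l2 was at 123 CPM in WT library 11, below the other WT libraries (236 to 256 CPM), and that library was the lowest of the WT libraries for 9 of the 10 factors, with Olig1 at its highest.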

How the results depend on the processing

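Over 21 fits at an adjusted p under 0.05, 9 of the 10 factors kept their call and direction between vehicle-treated and WT NSCs, and Olig2 kept its direction; leaving out 1 library gave 9 to 10 calls there and 10 to 10 between Igfbp2-treated and WT NSCs. With a log2 fold change of at least 1 the counts were 8 (without Olig1 and Olig2) and 6. Zfp536 and Nkx6-2 are not in the fit with a mean of at least 5 CPM. Between Igfbp2 and vehicle the main count of 1 became 2 with library totals, 4 with only these groups, 3 with the replicate block, 0 in the study's test, 2 in either limma test on TPM, 0 at an adjusted p under 0.01, 0 at a log2 fold change of at least 1, and 0 to 5 without 1 library (0 without libraries 1, 2, 5 or 7, and 5 without WT library 11). Directions reversed in that comparison with library totals, the study's test, limma on log2(TPM + 1) and limma on log2(TPM + 0.1), in that order, for Olig2 (−0.052, −0.245, −0.258, −0.26), Sox8 (−0.058, −0.312, −0.316, −0.322), Sox10 (−0.044, −0.238, −0.223, −0.239) and Tcf7l2 (−0.012, −0.122, −0.13, −0.142), and for Nkx6-2 without library 3 (0.065), 5 (0.011) or 7 (0.111), its range without 1 library being −0.221 to 0.111. Genes called among all tested in that comparison were 3923, and 5906 with library totals, 2148 in the study's test and 6354 to 6519 in the limma tests. They were 5709 of 15101 with only these groups, 5434 of 15101 with the replicate block and 4872 of 15913 without WT library 11. Against WT the study's test called 4328 in place of 8978 for vehicle and 5592 in place of 9801 for Igfbp2. The median of the early specifiers minus that of the late factors was 1.192 between vehicle and WT, −0.04 between Igfbp2 and vehicle and 1.387 between Igfbp2 and WT; without 1 library it was 1.009 to 1.37, −0.098 to 0.054 and 1.225 to 1.575. With Sox10 counted as late it was 1.962 and 2.113 against WT, and with Nkx2-2 as late 1.738 and 2.04. Against the same 8 libraries unblocked, the replicate block ended the call of Myrf and changed no other member's call. Causes of these shifts were not tested. Depth limits Nkx6-2 and Zfp536, which had 20 to 62 counts in some Ncf1-/- libraries. The p-values measure the spread between the libraries of each group. Each vehicle-treated library held Y-linked genes and Xist together. Whether the libraries of a group came from separate animals was not tested, so this spread may differ from that between animals.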
